A study of Mus musculus with 56 samples.

Results

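Visceral adipose tissue (VAT) was compared at the end of the feeding half-day under daytime-restricted feeding (DRF) and under its nighttime counterpart (NRF). The members are, by their labels, all 4 libraries of DRF mice at zeitgeber time 12 (ZT12, hours after lights on), all 4 of NRF mice at ZT0 and all 4 of NRF mice at ZT24, which makes 12 of the 56 libraries of the series, 1 mouse each. All were female C57BL/6J mice aged 9 weeks with no engineered allele or drug, kept in groups under 12 h of light and 12 h of dark with free feeding before 7 days of DRF or NRF. Polyadenylated RNA was sequenced. The DRF mice reached the end of feeding at the change from light to dark and the NRF mice at the change from dark to light. Each comparison thus sets groups of like timing of food access but opposite light transition side by side, within a gene. The amount eaten and the activity of the mice are not aligned by this. Cages, sampling days and library batches were not given in the sources used here, and p-values measure the spread between mice.

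The clock in each cell is a loop. ARNTL with CLOCK or NPAS2 switches on the Per, Cry and Nr1d genes through E-boxes, PER and CRY proteins block that step, NR1D1 and NR1D2 silence Arntl and Npas2 through ROR elements, and DBP, TEF and HLF pass the rhythm on through D-boxes. In peripheral tissues the loop takes time cues from the light-driven clock of the brain, from circulating glucocorticoids and from the timing of meals. Fed adipose tissue takes up sugar and builds fatty acids, and fasted adipose tissue releases them.

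The 12 libraries held 33.7 to 40.7 M reads recovered from the deposited values (Scd1 not counted), with 22411 to 23512 genes above 0. Adipocyte markers were present in each of them, with a summed level of 21699.6 to 27392 CPM (counts per M of a library's effective size, the scale on which the deposited values rest) in DRF and 25804 to 37624 CPM in NRF. Replicate 4 of NRF ZT24 held 1385 CPM of Alb, the main secreted protein of liver, against 20.9 to 49.4 CPM in the other 11 libraries, and 509.8 CPM of summed skeletal muscle markers against at most 107. Replicate 1 of NRF ZT0 held 809 CPM of Acly against 5298 to 14837 CPM elsewhere. Both libraries were kept in the main comparison, which was repeated without the first of them and without both. The 4 NRF ZT24 mice stand at the same phase as the 4 NRF ZT0 mice, and between them 1 of 15738 genes tested differed (0.00635%). This gene was Smim27, named after its value was seen, and it was lower at ZT24.

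The promoters of 5 clock genes that moved in this comparison are shown first because each holds a motif of the loop between 250 bases before and 50 bases after a start site. They come from RefSeq on build GRCm38.p6 and read 5′ to 3′ on the gene's own strand. The motifs searched on both strands were the E-box CACGTG, the D-box TTATGTAA or TTACGTAA and the ROR element TAGGTCA, and matches are in capitals. The cAMP response, heat shock, glucocorticoid and sterol elements were searched too and had no match in these 5 windows, where no matches overlap. Per1 and Arntl have another window in the table, which holds no match. Such a match is a description of letters, not a binding site. In Per1, on the plus strand, the E-box begins 166 bases before the start site. In Ciart, on the minus strand, 3 E-boxes begin 116, 58 and 44 bases before it. In Cry1, on the minus strand, an E-box begins 60 bases before it. In Per3, on the minus strand, 2 D-boxes begin 205 and 158 bases before it. In Arntl, on the plus strand, a ROR element begins at base 31 of the transcript.
Per1 chr11:69098699-69098998: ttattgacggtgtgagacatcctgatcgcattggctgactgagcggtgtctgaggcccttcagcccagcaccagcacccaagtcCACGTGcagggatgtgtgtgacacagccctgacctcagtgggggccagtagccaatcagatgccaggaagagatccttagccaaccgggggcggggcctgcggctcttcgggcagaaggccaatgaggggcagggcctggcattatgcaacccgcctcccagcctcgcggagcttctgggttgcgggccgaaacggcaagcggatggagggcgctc
Ciart chr3:95882179-95882478: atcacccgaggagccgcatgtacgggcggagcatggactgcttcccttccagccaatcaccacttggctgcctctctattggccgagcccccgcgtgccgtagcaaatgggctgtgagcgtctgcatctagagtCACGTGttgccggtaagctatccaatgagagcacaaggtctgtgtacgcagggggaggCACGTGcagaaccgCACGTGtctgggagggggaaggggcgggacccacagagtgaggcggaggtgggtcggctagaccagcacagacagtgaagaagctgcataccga
Cry1 chr10:85185005-85185304: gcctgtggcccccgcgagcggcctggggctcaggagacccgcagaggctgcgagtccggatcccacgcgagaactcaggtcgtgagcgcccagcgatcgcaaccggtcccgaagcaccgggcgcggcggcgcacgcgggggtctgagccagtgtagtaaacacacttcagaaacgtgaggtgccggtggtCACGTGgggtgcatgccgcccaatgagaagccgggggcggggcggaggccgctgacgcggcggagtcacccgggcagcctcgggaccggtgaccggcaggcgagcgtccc
Per3 chr4:151044616-151044915: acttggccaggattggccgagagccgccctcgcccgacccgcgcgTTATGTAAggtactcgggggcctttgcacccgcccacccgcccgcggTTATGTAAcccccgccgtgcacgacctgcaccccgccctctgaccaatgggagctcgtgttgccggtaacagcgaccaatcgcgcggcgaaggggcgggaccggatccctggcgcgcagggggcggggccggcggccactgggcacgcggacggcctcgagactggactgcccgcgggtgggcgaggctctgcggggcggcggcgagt
Arntl chr7:113207261-113207560: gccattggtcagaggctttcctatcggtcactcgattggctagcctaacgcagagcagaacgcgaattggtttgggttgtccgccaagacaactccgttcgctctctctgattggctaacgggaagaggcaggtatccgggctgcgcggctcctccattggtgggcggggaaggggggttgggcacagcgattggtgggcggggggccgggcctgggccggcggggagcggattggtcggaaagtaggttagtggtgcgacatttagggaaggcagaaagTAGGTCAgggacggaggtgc

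The E-box was found in 7.15% of the 32851 windows of this length, the D-box in 1.06% and the ROR element in 2.61%. Among the 11383 genes tested that had a window, the shares were 11.3%, 0.931% and 2.29%. Among the 342 of them called higher in DRF they were 11.7%, 1.46% and 1.46%, and among the 208 called lower 9.62%, 0.481% and 5.77%. The sterol element was in 1.42% of the genes tested, 3.22% of the higher and 0.0% of the lower genes. In the same order, the glucocorticoid element was in 0.413%, 1.17% and 0.481%. The cAMP response element was in 3.33%, 3.51% and 2.88% and the heat shock element in 0.562%, 0.585% and 0.962%. These shares are a description and were not tested. Tef held an E-box in both of its windows and Fkbp5 an E-box. The windows of Dbp, Nr1d1, Nr1d2, Npas2, Hlf and Usp2 held no E-box, D-box or ROR element. Per2 and Wee1 had no window in the table.

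The question of the comparison is how far VAT transcripts match once the timing of food access is aligned. Of 15738 genes tested with limma, 751 differed at an adjusted p under 0.05 (4.77%), 449 higher in DRF ZT12 (2.85%) and 302 lower (1.92%). The rises had a median of 0.61 on the log2(CPM + 1) scale, the scale of every difference below, and 76 of them were at least 1. The falls had a median size of 0.50 and 23 of them were at least 1. For 780 genes (4.96%) the 4 DRF mice did not overlap the 8 NRF mice, and 516 of the 751 called genes were among them (68.7%). The median over all genes tested was 0.0017. Without replicate 4 of NRF ZT24 the count rose to 1057, and without replicate 1 of DRF ZT12 it fell to 205, the lowest of the 12 fits that each leave out 1 mouse. It was 342, 381 and 415 without replicate 2, 3 or 4 of DRF ZT12 and 457 and 410 without replicate 2 or 3 of NRF ZT24. Against NRF ZT0 alone 467 genes passed (2.97%) and against NRF ZT24 alone 342 (2.17%).

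The DRF mice at ZT0 and ZT24 and the NRF mice at ZT12, which stood at the start of feeding, allowed the difference to be split in a fit over 24 libraries into a light transition part (ZT12 minus ZT0 and ZT24, mean of both regimens) and a regimen part (DRF minus NRF, mean of both light transitions). The parts add up to the whole, and each is a mean that need not be alike in both regimens or at both light transitions. The light transition part passed for 688 genes (4.37%) and the regimen part for 1419 (9.02%). Among the 449 genes higher in DRF ZT12 the median light transition part was 0.24 and the median regimen part 0.36. Among the 302 lower genes they were -0.23 and -0.26. End against start of feeding, mean of both regimens, passed for 5378 genes (34.2%). Without replicate 4 of DRF ZT0, a library with epithelial genes such as Krt8, the light transition part passed for 972 genes and the regimen part for 2230. All of these contrasts share libraries with the main comparison.

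**Figure D1:**
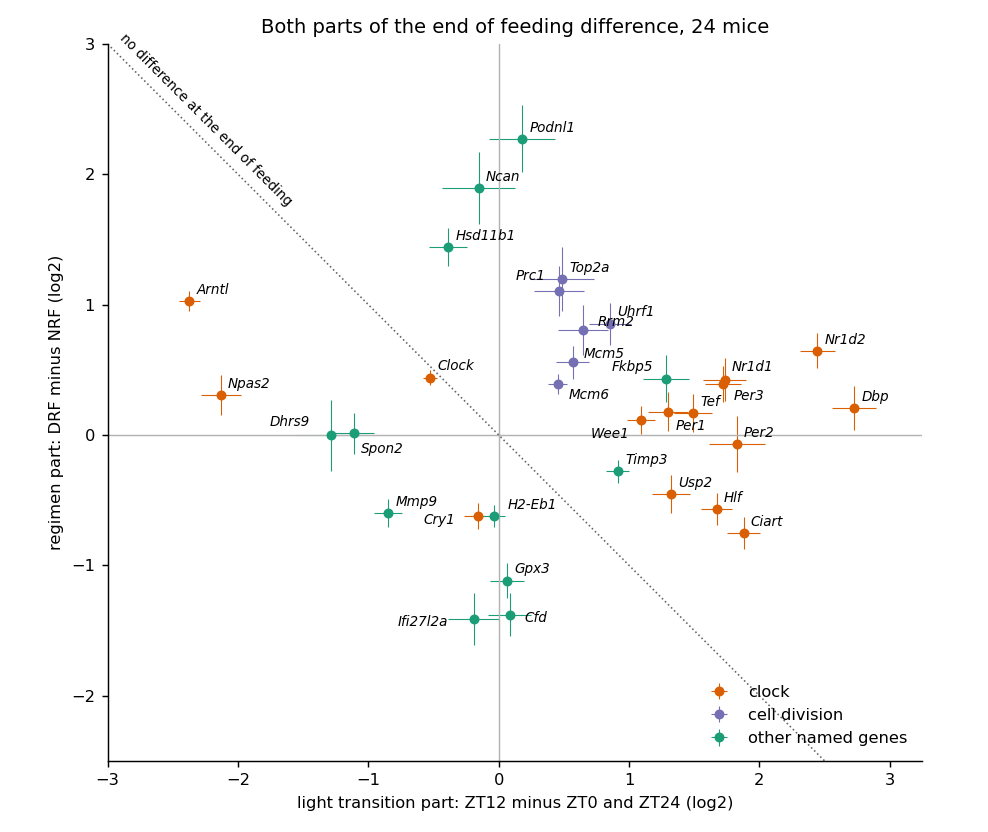
Light transition part (x axis) against regimen part (y axis) of the end of feeding difference, both in log2(CPM + 1), for clock genes (orange), cell division genes (purple) and other genes named in the text (green). Points are estimates from 24 libraries, bars are standard errors, and genes on the dotted line have no difference at the end of feeding. Nr1d2, Dbp and Arntl lie far from 0 along the x axis, and Podnl1, Cfd and Ncan along the y axis.

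The clock differed at the end of feeding. Of 4 core clock activators tested, 2 were lower in DRF ZT12 and none higher. Of 12 clock repressors, 6 were higher and 1 lower, and of 10 PAR bZIP factors and clock outputs, 6 were higher. The background over all genes was 2.85% higher and 1.92% lower. Between end and start of feeding, 3 activators, 1 repressor and 1 output were higher, and 1, 7 and 8 were lower. Of all genes 19.0% were higher and 15.2% lower in that contrast. Among the activators, Arntl was at 16.05, 11.3, 17.6 and 14.8 CPM in DRF ZT12, 32.5, 40.7, 36.6 and 42.4 CPM in NRF ZT0 and 40.3, 40.3, 40.95 and 40.1 CPM in NRF ZT24. All 4 DRF mice lay below all 8 NRF mice, and the difference was -1.35 ± 0.10 (SE, adjusted p = 2.4e-05). Arntl carried parts of opposite sign, -2.37 for the light transition and 1.03 for the regimen. At the start of feeding it stood at 16.3 ± 2.41 and 17.7 ± 3.40 CPM (mean ± SD, n = 4 each) in DRF ZT0 and ZT24, near the DRF ZT12 mean of 14.9 ± 2.66, but at 0.689 ± 0.109 CPM in NRF ZT12. Npas2, which encodes the alternative partner of ARNTL, was at 3.95, 3.66, 3.07 and 3.13 CPM in DRF ZT12, 19.4, 14.7, 12.8 and 16.03 CPM in NRF ZT0 and 17.3, 8.998, 14.8 and 16.4 CPM in NRF ZT24. Its groups did not overlap either, and the difference was -1.83 ± 0.15 (adjusted p = 5.6e-05), of which -2.13 was the light transition part.

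Clock, which encodes the partner of ARNTL, stood at 89.7 to 98.3 CPM in DRF and 88.3 to 112 CPM in NRF. Its difference of -0.088 (95% interval -0.24 to 0.063, adjusted p = 0.51) was made of opposed parts, -0.53 and 0.44, that each passed. Rora differed by 0.31 (0.12 to 0.50, adjusted p = 0.059), and Rorb was below the filter on low values.

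**Figure D2:**
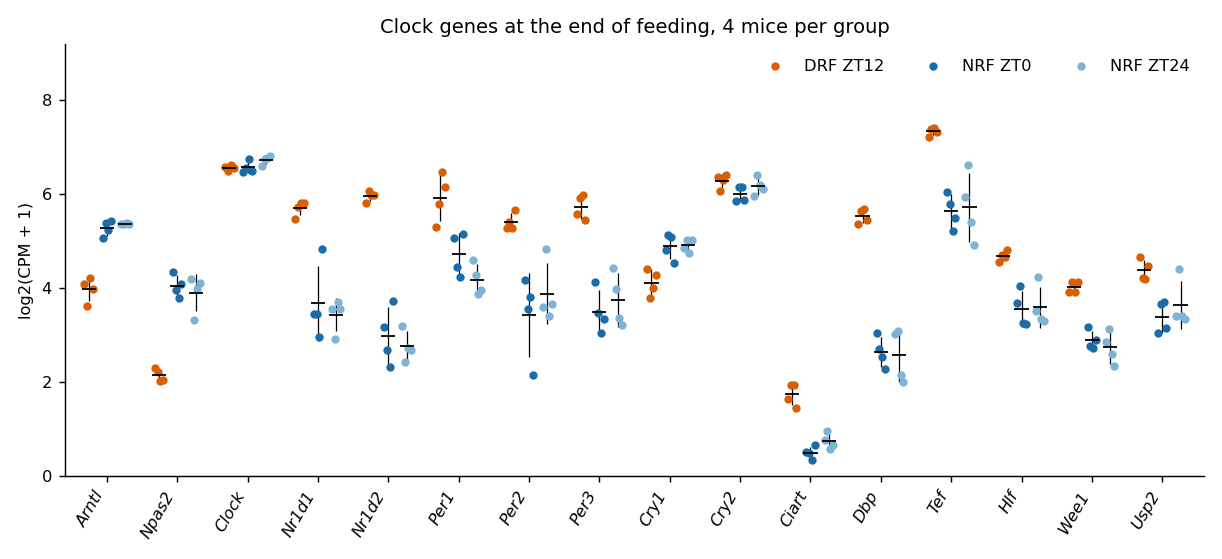
Levels of 16 clock genes in log2(CPM + 1) in each of the 12 mice, with DRF ZT12 in orange, NRF ZT0 in dark blue and NRF ZT24 in light blue. Horizontal marks are group means and vertical bars SDs of 4 mice. DRF ZT12 lies below both NRF groups for Arntl, Npas2 and Cry1 and above them for Nr1d1, Nr1d2, Per1, Per2, Per3, Ciart, Dbp, Tef, Hlf and Wee1.

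The 6 repressor genes that were higher in DRF ZT12 were Nr1d1, Nr1d2, Per1, Per2, Per3 and Ciart, and Cry1 was lower. Nr1d2 showed the largest rise among the named genes, 54.98, 66.02, 62.1 and 62.1 CPM in DRF ZT12 against 8.08, 5.40, 3.97 and 12.3 CPM in NRF ZT0 and 8.14, 4.38, 5.65 and 5.45 CPM in NRF ZT24. The lowest DRF mouse was more than 4 times the highest NRF mouse, and the difference was 3.09 ± 0.22, 8.51-fold on this scale (adjusted p = 2.4e-05). Nr1d1 was at 43.7, 52.3, 55.6 and 55.4 CPM in DRF ZT12, 9.95, 9.95, 6.79 and 27.4 CPM in NRF ZT0 and 10.7, 6.60, 12.1 and 10.8 CPM in NRF ZT24, a difference of 2.16 ± 0.28 (adjusted p = 0.0025). Replicate 4 of NRF ZT0 was the highest NRF mouse for both genes. The NRF mice stood far higher at the start of feeding, at 155 ± 6.76 CPM of Nr1d2 in NRF ZT12, while DRF ZT0 and ZT24 stood at 47.5 ± 9.25 and 41.6 ± 7.20 CPM, beside 61.3 ± 4.61 CPM in DRF ZT12.

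The 3 Per genes, which encode the proteins that block ARNTL, all rose. Per3 was at 46.8, 59.9, 62.2 and 42.8 CPM in DRF ZT12, 16.5, 10.1, 7.28 and 9.13 CPM in NRF ZT0 and 20.6, 14.8, 9.28 and 8.27 CPM in NRF ZT24 (2.11 ± 0.24, adjusted p = 0.0010). Per2 was at 37.6, 41.7, 38.003 and 49.7 CPM in DRF ZT12, 17.1, 10.8, 13.1 and 3.44 CPM in NRF ZT0 and 11.1, 27.6, 9.64 and 11.7 CPM in NRF ZT24 (1.76 ± 0.35, adjusted p = 0.021). The Per2 call held in 8 of the 12 fits that each leave out 1 mouse and was lost without replicate 1 of DRF ZT12. Per1, whose promoter with its E-box is printed above, was at 38.5, 54.7, 87.8 and 69.9 CPM in DRF ZT12, 32.8, 20.9, 17.8 and 34.4 CPM in NRF ZT0 and 23.3, 18.4, 13.6 and 14.5 CPM in NRF ZT24 (1.48 ± 0.24, adjusted p = 0.0065). No Per gene overlapped between DRF and NRF, and their light transition parts of 1.72, 1.83 and 1.30 passed while their regimen parts of 0.39, -0.069 and 0.18 did not. A light transition part is a mean of both regimens. For the Per genes, Npas2, Ciart and Hlf its split by regimen is not given here, so it does not show a change alike in DRF and NRF.

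Ciart, a repressor with 3 E-boxes in the promoter printed above, stood at 1.74 to 2.85 CPM in DRF and 0.268 to 0.939 CPM in NRF. It rose by 1.13 ± 0.12 (adjusted p = 0.00040), with parts of 1.88 for the light transition and -0.75 for the regimen. Cry1 moved against the other repressors, at 20.4, 12.8, 14.9 and 18.4 CPM in DRF ZT12, 27.1, 33.9, 33.3 and 22.3 CPM in NRF ZT0 and 27.99, 31.7, 25.7 and 31.4 CPM in NRF ZT24. It was lower in all 4 DRF mice (-0.79 ± 0.13, adjusted p = 0.0067), and of its parts the regimen part of -0.62 passed and the light transition part of -0.16 did not. Cry2 differed by 0.19 (-0.015 to 0.40, adjusted p = 0.27). Bhlhe40, Bhlhe41, Csnk1d and Csnk1e did not pass.

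Among the outputs, Dbp was at 40.4, 48.7, 50.5 and 42.97 CPM in DRF ZT12, 7.20, 5.50, 4.83 and 3.85 CPM in NRF ZT0 and 7.09, 7.46, 3.46 and 3.03 CPM in NRF ZT24. The lowest DRF mouse was more than 5 times the highest NRF mouse, and the difference was 2.93 ± 0.20 (adjusted p = 2.4e-05). Its light transition part of 2.73 (regimen part 0.21) is the mean of unlike differences between ZT12 and the mean of ZT0 and ZT24, 0.053 in DRF and 5.40 in NRF. For Nr1d2 these were 0.47 and 4.42, for Arntl -0.18 and -4.57, and for Fkbp5 0.63 and 1.93. The gap between the regimens in these differences is what the end against start of feeding contrast tests, and it passed for all 4 genes (adjusted p = 5.3e-10, 1.2e-09, 2.0e-14 and 0.0075). At the start of feeding, Dbp reached 256 ± 9.02 CPM in NRF ZT12 and 51.7 ± 11.9 and 40.7 ± 17.1 CPM in DRF ZT0 and ZT24. Tef, from the same family, was at 149 to 169.6 CPM in DRF and 29.1 to 97.2 CPM in NRF (1.66 ± 0.26, adjusted p = 0.0065). Hlf, the remaining member, was at 22.4 to 27.1 CPM in DRF and 8.49 to 17.7 CPM in NRF (1.11 ± 0.18, adjusted p = 0.0065), with parts of 1.67 and -0.57. Wee1, a kinase gene that restrains entry into mitosis and is driven by E-boxes, was at 14.03 to 16.6 CPM in DRF and 4.07 to 8.03 CPM in NRF (1.21 ± 0.14, adjusted p = 0.00079).

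Usp2, a ubiquitin protease gene, rose by 0.87 ± 0.20 (adjusted p = 0.032) but its groups overlapped, since replicate 2 of NRF ZT24 stood at 20.1 CPM and the DRF mice at 17.3 to 24.3 CPM. Without both NRF libraries that stand apart its adjusted p was 0.051. Tsc22d3, given below with the glucocorticoid targets, was the remaining called output. Nfil3, Nampt, Por and Klf10 did not pass. Arntl, Npas2, Nr1d1, Nr1d2, Per1, Per3, Ciart, Cry1, Dbp, Tef, Hlf and Wee1 each passed in all 12 fits that leave out 1 mouse.

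Glucocorticoids, adrenal hormones that peak before waking, act through NR3C1 and also bear on Per1. Of 20 genes listed as the receptor and its targets, 6 were higher in DRF ZT12 and none lower, against 2.85% and 1.92% over all genes, and 7 were higher and 1 lower (Cdkn1a and Arl4d joined) without replicate 4 of NRF ZT24. Of the 20 differences, 11 were positive. Between end and start of feeding 1 of the 20 was higher and 12 were lower, against 19.0% and 15.2% of all genes. Fkbp5, which encodes a chaperone of the receptor and is a sensitive target, was at 50.1, 67.6, 50.1 and 75.5 CPM in DRF ZT12, 18.1, 15.1, 12.6 and 19.7 CPM in NRF ZT0 and 19.7, 19.9, 20.1 and 16.6 CPM in NRF ZT24. The groups were far apart, with a difference of 1.72 ± 0.13 (adjusted p = 2.4e-05) and a light transition part of 1.28. Hsd11b1, which encodes the enzyme that regenerates active glucocorticoid within the cell, was at 98.1, 88.8, 112 and 71.5 CPM in DRF ZT12, 41.3, 43.4, 38.6 and 56.4 CPM in NRF ZT0 and 31.6, 40.2, 38.9 and 65.7 CPM in NRF ZT24. It was higher in all 4 DRF mice (1.06 ± 0.17, adjusted p = 0.0071), and here the regimen part of 1.44 passed and the light transition part of -0.39 did not, with 129 ± 46.3 and 155 ± 43.4 CPM in DRF ZT0 and ZT24 against 37.6 ± 3.28 CPM in NRF ZT12.

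Map3k6, a kinase gene, stood at 37.2 to 50.9 CPM in DRF and 12.8 to 30.8 CPM in NRF (1.02 ± 0.19, adjusted p = 0.012). Tsc22d3, which encodes the glucocorticoid-induced leucine zipper, stood at 68.3 to 123 CPM in DRF and 42.4 to 75.3 CPM in NRF, with 2 NRF mice above the lowest DRF mouse (0.78 ± 0.18, adjusted p = 0.035). Klf9, a Krüppel-like factor gene, rose by 0.46 ± 0.10 (adjusted p = 0.022), and Per1 is the remaining called member. Per1 is also counted among the clock repressors, Tsc22d3 among the clock outputs and Klf9 among the adipogenic factors below. The counts of these lists are therefore not independent. The receptor gene Nr3c1 differed by -0.15 (-0.35 to 0.046, adjusted p = 0.37). Among the members that did not pass, Angptl4, a lipase inhibitor gene, differed by -1.28 (-2.04 to -0.51, adjusted p = 0.061) with no overlap between groups, Cdkn1a, a cell cycle inhibitor gene, by 1.23 (0.46 to 2.01, adjusted p = 0.070), and Zbtb16 by 1.35 (0.37 to 2.32, adjusted p = 0.11).

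Cell division genes rose together in DRF ZT12. Of 25 proliferation genes tested, 20 were higher and none lower, against 2.85% and 1.92% of all genes. Of the 25, 17 did not overlap between DRF and NRF, against 4.96% of all genes, and the list had a median of 1.11 against 0.0017 over all genes. In bulk tissue, a larger number of dividing cells and more of these transcripts per cell cannot be told apart. Top2a, the topoisomerase gene of dividing cells, was at 32.5, 38.6, 17.9 and 22.8 CPM in DRF ZT12, 12.8, 7.25, 2.44 and 10.97 CPM in NRF ZT0 and 11.5, 3.29, 8.26 and 12.5 CPM in NRF ZT24 (1.68 ± 0.40, adjusted p = 0.040). Rrm2, a ribonucleotide reductase subunit gene, was at 11.99, 13.4, 6.30 and 10.3 CPM in DRF ZT12, 4.67, 3.06, 1.32 and 5.22 CPM in NRF ZT0 and 3.05, 1.41, 3.30 and 4.43 CPM in NRF ZT24 (1.45 ± 0.29, adjusted p = 0.016). In both genes replicates 1 and 2 of DRF were the highest mice. Mcm6, part of the helicase that opens DNA for replication, was at 27.4, 30.96, 19.9 and 20.8 CPM in DRF ZT12, 13.3, 13.5, 11.6 and 13.9 CPM in NRF ZT0 and 12.5, 11.9, 14.7 and 14.2 CPM in NRF ZT24 (0.84 ± 0.11, adjusted p = 0.0022). The helicase genes Mcm2, Mcm3 and Mcm5 rose by 0.84, 0.70 and 1.13.

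Uhrf1, which maintains DNA methylation in replicating cells and belongs to the largest rises rather than to the list, was at 18.3, 16.2, 10.4 and 11.5 CPM in DRF ZT12, 3.88, 4.19, 2.12 and 5.39 CPM in NRF ZT0 and 3.02, 1.64, 4.27 and 5.15 CPM in NRF ZT24 (1.71 ± 0.24, adjusted p = 0.0030). It stood at 4.37 ± 0.973 and 3.87 ± 1.39 CPM in DRF ZT0 and ZT24 and at 4.12 ± 1.21 CPM in NRF ZT12, so that of the 6 groups DRF ZT12 alone was high. Prc1, of the spindle midzone, and Pclaf, a PCNA partner gene, rose by 1.57 and 1.36 by the same rule. Mki67, the common marker of dividing cells, stood at 25.3 to 52.3 CPM in DRF and 3.95 to 18.8 CPM in NRF, with no overlap and an adjusted p of 0.057. Pcna, Tyms, Ccnd1 and E2f1 did not pass.

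The regimen part passed for 21 of the 25 genes, all higher, and the light transition part for 4, all higher, against 5.17% and 2.57% of all genes. The count of 20 rested on single mice. Without replicate 1 of DRF ZT12 it was 4, which were Mcm2, Mcm3, Mcm5 and Mcm6, at a list median of 1.03. Without replicate 4 of NRF ZT24 it was 22, and Mki67 passed. On log2(deposited value + 1) it was 7 with all 12 libraries, at a list median of 0.64. Some red cell genes were higher in DRF ZT12 too. Hba-a1, an alpha globin gene, was at 357, 196, 176 and 492 CPM in DRF ZT12, 139.8, 115, 126 and 142 CPM in NRF ZT0 and 142, 119, 154 and 137 CPM in NRF ZT24 (1.06 ± 0.23, adjusted p = 0.025). Hbb-bs and Alas2 also rose, by 1.04 and 0.75, and Hba-a2 and Hbb-bt did not pass. Globin copies are near-identical and their split between genes is uncertain. Over the 9 red cell and neutrophil markers tested, 3 were higher and 1 lower (S100a9), against 2.85% and 1.92% of all genes, and their summed level was 299 to 858 CPM in DRF against 195 to 261 CPM in NRF. Without replicate 1 of DRF ZT12 none of the 9 passed, S100a9 did not pass without replicate 4 of NRF ZT24, and without both NRF libraries that stand apart Hba-a1 and Hbb-bs did. The share of red cell RNA in the rise of cell division genes was not tested. In DRF, replicates 1 and 4 were highest for Hba-a1 and replicates 1 and 2 for Top2a.

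**Figure D3:**
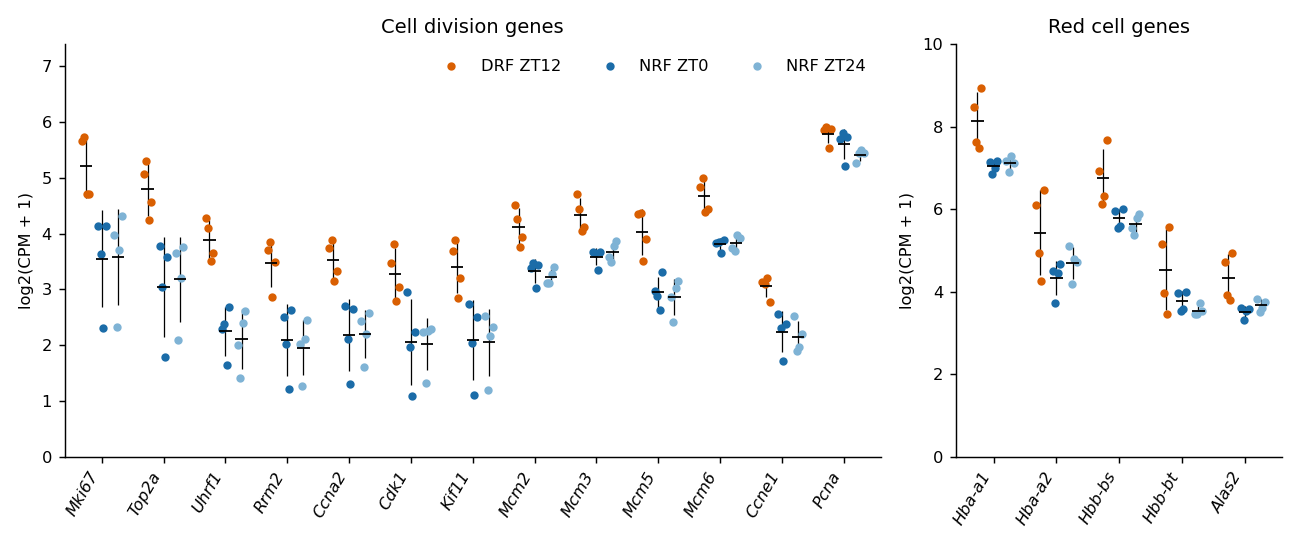
Levels of cell division genes (left) and red cell genes (right) in log2(CPM + 1) in each of the 12 mice, with DRF ZT12 in orange, NRF ZT0 in dark blue and NRF ZT24 in light blue. Horizontal marks are group means and vertical bars SDs of 4 mice. The 4 DRF mice lie above all NRF mice for the Mcm genes and Uhrf1, and the DRF mice are spread widely for the globin genes.

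In the metabolic lists 0 to 2 genes each passed at the end of feeding, where 4.77% of all genes did. Here and below, counts at an unadjusted p under 0.05 stand without the share of all genes at that threshold. They are not to be read against the shares at an adjusted p. Of 20 de novo lipogenesis genes none passed in limma (2 had an unadjusted p under 0.05), and 1 was higher without both NRF libraries that stand apart. The list had a median of 0.34, which was 0.068 without replicate 1 of NRF ZT0. Acly, which makes acetyl-CoA for fatty acid synthesis, was at 11812, 5298, 7331 and 12319 CPM in DRF ZT12, 809, 7481, 14837 and 9025 CPM in NRF ZT0 and 6066, 6239.9, 12170.2 and 12212 CPM in NRF ZT24. The groups overlapped widely and the difference was 0.35 with a 95% interval of -1.06 to 1.76 (adjusted p = 0.80), so that changes of over 2-fold in either direction lie within the interval. Fasn, the fatty acid synthase gene, differed by 0.30 (-0.45 to 1.05, adjusted p = 0.68), and Elovl6, an elongase gene, by 0.64 (-0.53 to 1.81, adjusted p = 0.54). Scd2, a desaturase gene, differed by 0.90 (-0.11 to 1.91, adjusted p = 0.29). Its end against start of feeding difference was 2.57 (adjusted p = 1.8e-06).

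Of 30 cholesterol synthesis and uptake genes, 2 were higher in DRF ZT12, where 2.85% of all genes were. It was 3 without replicate 4 of NRF ZT24 and 1 without replicate 1 of DRF ZT12. At the end against the start of feeding 22 were higher and 2 lower, where 19.0% of all genes were higher and 15.2% lower. Tm7sf2, a sterol reductase gene, stood at 39.6 to 60.3 CPM in DRF and 21.3 to 38.1 CPM in NRF (0.79 ± 0.16, adjusted p = 0.016). Abcg1, a cholesterol exporter gene, stood at 14.9 to 18.7 CPM in DRF and 8.46 to 13.02 CPM in NRF (0.59 ± 0.10, adjusted p = 0.0083). Neither overlapped, and Tm7sf2 lost its call without replicate 1 of DRF ZT12. Sqle, which encodes the epoxidase of the pathway, differed by 0.47 (-0.47 to 1.40) between regimens at the end of feeding and by 1.93 between end and start, and Mvd, a mevalonate pathway gene, by 0.46 (-0.61 to 1.52) and 2.23.

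Of 25 lipolysis and lipid droplet genes 1 was higher, where 2.85% of all genes were, which is no result about the list. At the end against the start of feeding 3 were higher and 12 lower, where 19.0% of all genes were higher and 15.2% lower. The called gene was Adora1, whose receptor restrains lipolysis, at 114, 121, 138 and 136 CPM in DRF ZT12, 74.2, 79.1, 60.6 and 74.1 CPM in NRF ZT0 and 83.8, 75.6, 56.7 and 69.4 CPM in NRF ZT24. All DRF mice lay above all NRF mice (0.83 ± 0.10, adjusted p = 0.0016). Lipe, the hormone-sensitive lipase gene, differed by -0.093 (-0.32 to 0.13, adjusted p = 0.66) at the end of feeding and by -0.96 between end and start. This interval is far narrower than that of Acly. Pnpla2, the first lipase gene of the pathway, differed by 0.19 (-0.09 to 0.47, adjusted p = 0.44). Pck1, which feeds glycerol synthesis and is silenced by insulin, ranged over 42.3 to 329 CPM in DRF and 57.98 to 1452 CPM in NRF, with an interval of -2.94 to 0.82 for its difference of -1.06.

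None of 24 fatty acid oxidation genes, 15 triglyceride synthesis genes or 21 sugar transport and glycogen genes passed in limma, with 6, 5 and 2 at an unadjusted p under 0.05. For every list with no call, limma voom on the recovered reads also made 0 calls. Of 24 insulin signalling genes, 2 were higher, against 2.85% of all genes. They were Pik3r1, a regulatory subunit gene of PI3-kinase (0.61 ± 0.16, adjusted p = 0.044), and Klf15 (0.38 ± 0.088, adjusted p = 0.029). Pik3r1 lost its call without replicate 1 of DRF ZT12. Without replicate 4 of NRF ZT24, 2 of the 24 were higher and 1 was lower. Irs2, an insulin receptor substrate gene that rises in fasting, was at 11.03, 17.1, 16.3 and 13.3 CPM in DRF ZT12, 67.6, 34.5, 19.6 and 58.8 CPM in NRF ZT0 and 37.5, 22.2, 25.1 and 14.2 CPM in NRF ZT24. Its difference of -1.07 (-1.76 to -0.37) had an adjusted p of 0.078, and of 0.049 without both NRF libraries that stand apart. Txnip, a gene that answers to glucose, was at 332 to 359.5 CPM in DRF and 401 to 985 CPM in NRF, with no overlap (-0.78, -1.27 to -0.29, adjusted p = 0.068).

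Over all genes, 34.2% passed between end and start of feeding and 4.77% between the regimens at its end, and the following lists are read against these shares. The first share comes from the fit over 24 libraries and the second from the fit over 12. In the fit over 24 libraries, 758 genes (4.82%) passed between the regimens at the end of feeding. End against start of feeding averages over all 24 libraries and the regimen contrast over 12 of them, which makes the first more precise. The gap between the shares therefore does not measure effect size alone. Of 21 heat shock genes 1 was higher at the end of feeding in DRF, Hspa1b (0.56 ± 0.14, adjusted p = 0.044), while 14 were higher at the end than at the start of feeding. Of 28 ribosome biogenesis genes 1 was lower, Npm1 (-0.46 ± 0.10, adjusted p = 0.019), while 19 were higher at the end than at the start. Of 22 endoplasmic reticulum chaperone genes 1 was lower, Calr (-0.39 ± 0.094, adjusted p = 0.034), while 10 were higher and 2 lower at the end than at the start. In limma 11 heat shock, 2 ribosome biogenesis and 12 chaperone genes had an unadjusted p under 0.05 at the end of feeding. The shares above, at an adjusted p, are no background for these counts. The chaperone median was -0.19, with 3 of 22 differences positive. Their summed level was 2857 to 3336 CPM in DRF and 3382 to 3976 CPM in NRF, without overlap. None of 20 aminoacyl-tRNA synthetase genes, 22 amino acid response genes, 24 immediate early genes, 15 thermogenic genes or 3 cold-inducible genes passed in limma, with 0, 4, 2, 4 and 1 at an unadjusted p under 0.05. Between end and start of feeding, 10, 9, 4, 1 and 0 of them were higher and 1, 4, 2, 0 and 1 lower. Without replicate 4 of NRF ZT24, 3 amino acid response genes (Mthfd2, Slc7a5 and Slc38a2) and 1 cold-inducible gene (Rbm3) were higher, and without both NRF libraries that stand apart Slc38a2 and Rbm3 were. Of 22 genes of branched-chain amino acid catabolism 1 was higher, Pcca (0.44 ± 0.10, adjusted p = 0.030), and between end and start 1 was higher and 6 lower. Hspa1b, Calr and Pcca lost their calls without replicate 1 of DRF ZT12, and Hspa1b also without replicate 4 of NRF ZT24, where Cryab was higher. Hspa1b and Cryab were both higher without both NRF libraries that stand apart.

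**Figure D4:**
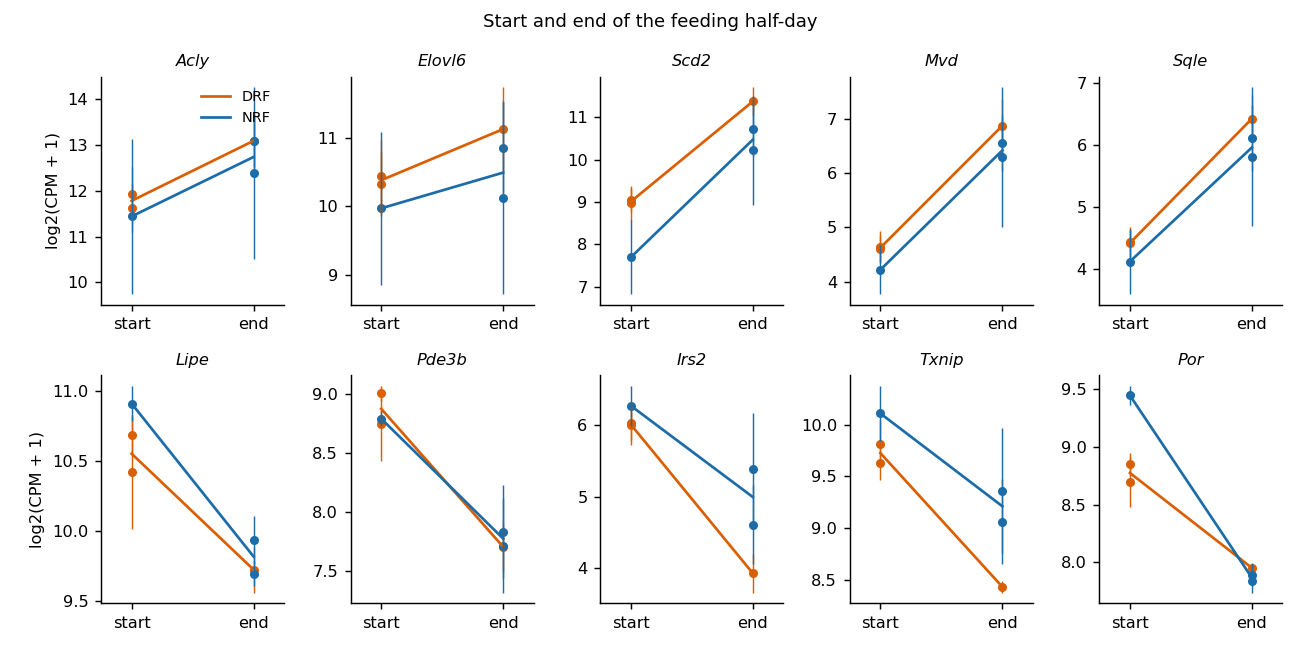
Mean level of 10 genes in log2(CPM + 1) at the start and the end of the feeding half-day in DRF (orange) and NRF (blue). Points are means of 4 mice at each sampled time, bars SDs and lines join the means of the points. Lipe, Pde3b and Por meet at the end of feeding, while the Txnip mean ends lower in DRF, a difference that did not pass (adjusted p = 0.068).

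**Figure D5:**
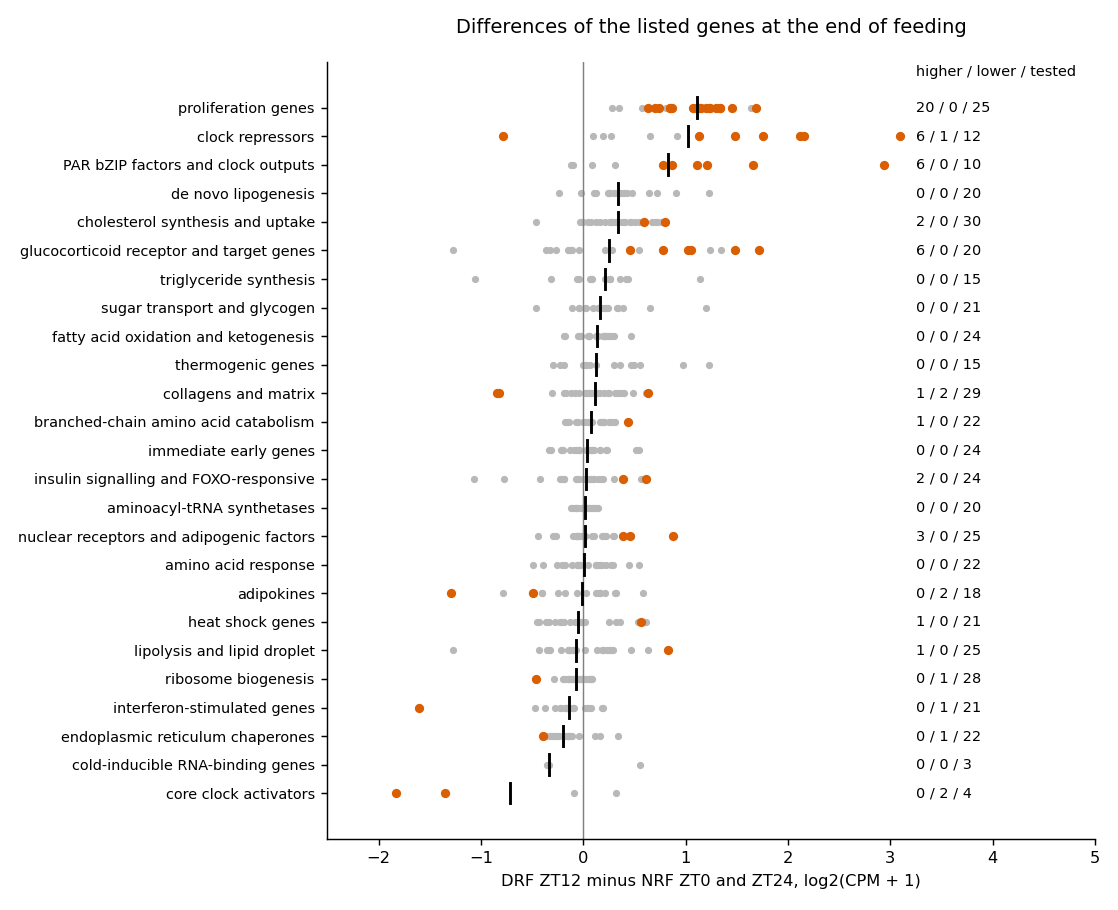
Difference between DRF ZT12 and NRF ZT0 and ZT24 in log2(CPM + 1) for the genes of 25 lists, with genes past an adjusted p of 0.05 in orange, others in grey and the list median as a black bar. Numbers at the right give the number higher, lower and tested. Proliferation genes hold 20 rises, clock repressors, clock outputs and glucocorticoid genes 6 each, and core clock activators have the lowest median.

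Among genes of the fat cell, Cfd, which encodes the complement factor adipsin, was at 4091, 3817, 3818 and 6997 CPM in DRF ZT12, 12199.8, 9692, 13140.3 and 12265 CPM in NRF ZT0 and 9966, 11642, 13032 and 7987 CPM in NRF ZT24. All DRF mice lay below all NRF mice (-1.30 ± 0.19, adjusted p = 0.0035). The regimen part of -1.38 passed and the light transition part of 0.083 did not, and Cfd stood at 4645 ± 2017 and 5738 ± 1864 CPM in DRF ZT0 and ZT24 against 13632 ± 2245 CPM in NRF ZT12. Gpx3, the gene of the secreted glutathione peroxidase, was at 481, 459, 518 and 687 CPM in DRF ZT12, 1210.2, 959, 1569 and 1052 CPM in NRF ZT0 and 955, 1153, 1437 and 707 CPM in NRF ZT24, again without overlap (-1.05 ± 0.19, adjusted p = 0.0084, regimen part -1.12). Of 18 adipokine genes, against 1.92% of all genes, Cfd and Retnla were lower (-0.49 ± 0.13, adjusted p = 0.044 for Retnla, which held in 2 of 12 fits that each leave out 1 mouse). Adiponectin (Adipoq) differed by -0.40 (-0.71 to -0.087, adjusted p = 0.13) and leptin (Lep) by 0.59 (-0.088 to 1.26, adjusted p = 0.31). Of the 10 adipocyte markers Cfd alone passed.

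Of 25 nuclear receptor and adipogenic factor genes 3 were higher, all Krüppel-like factors, against 2.85% of all genes. Klf13 was at 112, 124, 101 and 123 CPM in DRF ZT12, 65.8, 60.04, 59.8 and 59.3 CPM in NRF ZT0 and 75.6, 61.7, 57.2 and 59.7 CPM in NRF ZT24, with no overlap (0.87 ± 0.085, adjusted p = 0.00023). The others were Klf9, also counted among the glucocorticoid targets, and Klf15, also counted among the insulin signalling genes. The largest rises outside the clock and cell division were Podnl1, a small leucine-rich matrix protein gene, and Ncan, which encodes the proteoglycan neurocan. Podnl1 was at 51.03, 20.9, 21.8 and 36.2 CPM in DRF ZT12, 1.57, 5.79, 4.13 and 6.35 CPM in NRF ZT0 and 4.37, 1.83, 6.07 and 15.6 CPM in NRF ZT24 (2.45 ± 0.45, adjusted p = 0.013). Ncan was at 21.1, 14.6, 16.1 and 8.51 CPM in DRF ZT12, 1.08, 4.73, 7.81 and 4.40 CPM in NRF ZT0 and 1.70, 1.75, 4.77 and 7.47 CPM in NRF ZT24 (1.74 ± 0.41, adjusted p = 0.038). Their regimen parts were 2.27 and 1.89, and both lost their calls without replicate 1 of DRF ZT12.

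Of 29 matrix genes 1 was higher and 2 were lower, against 2.85% and 1.92% of all genes. Timp3, a protease inhibitor gene, was higher at 179 to 223 CPM in DRF against 93.6 to 159 CPM in NRF (0.63 ± 0.11, adjusted p = 0.0077), with a light transition part of 0.92. The protease genes Mmp14 (-0.84 ± 0.11, adjusted p = 0.0022) and Adamts4 (-0.83 ± 0.17, adjusted p = 0.018) were lower, and Adamts4 lost its call without replicate 1 of DRF ZT12. Without replicate 4 of NRF ZT24 Col5a3 was higher too. Mmp9, a gelatinase gene outside the list, was at 11.3, 13.8, 10.2 and 12.8 CPM in DRF ZT12, 21.9, 32.8, 44.996 and 33.6 CPM in NRF ZT0 and 43.2, 39.05, 36.7 and 28.3 CPM in NRF ZT24, with no overlap (-1.45 ± 0.16, adjusted p = 0.00079). Both of its parts passed, -0.85 and -0.60.

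The other large falls were of mixed kinds. Dhrs9, a dehydrogenase gene (-1.29), Alkal2, a ligand gene of the ALK receptor (-1.12), and Spon2, a secreted matrix protein gene (-1.10), had light transition parts of -1.28, -1.11 and -1.11 and regimen parts near 0. Sytl2 (-1.10), Gsta3, a glutathione transferase gene (-1.09), and Vwa3a (-1.05) also fell. Genes named as the largest rises and falls were picked for having no overlap, so its absence adds nothing to their calls. Serpina3k, a serine protease inhibitor gene made in liver, was at 1.07, 2.72, 4.02 and 6.37 CPM in DRF ZT12, 31.1, 9.23, 17.2 and 12.3 CPM in NRF ZT0 and 14.1, 24.1, 9.56 and 98.6 CPM in NRF ZT24 (-2.32 ± 0.58, adjusted p = 0.047). Its highest value lies in replicate 4 of NRF ZT24, the library with the most Alb, and the next in replicate 1 of NRF ZT0. Without replicate 1 of DRF ZT12 it did not pass, and without both NRF libraries that stand apart its adjusted p was 0.019. B3galt2, a glycosyltransferase gene, fell by 1.43 (adjusted p = 0.038) and held in 3 of 12 fits that each leave out 1 mouse. Srp54b fell by 1.71 (adjusted p = 0.0039), but it has a near-identical copy in Srp54a and the split of reads between them is uncertain.

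The regimen part was lower for 3 of 21 interferon-stimulated genes, against 3.84% of all genes. At the end of feeding 1 of the 21 was lower, where 1.92% of all genes were, which is no result about the list. It was Ifi27l2a, at 117, 175, 154 and 185 CPM in DRF ZT12, 486, 455, 712 and 342 CPM in NRF ZT0 and 339, 758, 637 and 286 CPM in NRF ZT24 (-1.60 ± 0.27, adjusted p = 0.0078, regimen part -1.41). The antigen presentation genes H2-Eb1, H2-Ab1 and H2-Aa belong to no list and were named after their values were seen. H2-Eb1 was at 100.4, 106, 109 and 94.1 CPM in DRF ZT12, 151, 171, 171 and 161 CPM in NRF ZT0 and 147, 194, 169.7 and 139.5 CPM in NRF ZT24 (-0.66 ± 0.09, adjusted p = 0.0023). H2-Ab1 and H2-Aa fell by 0.63 and 0.72 (adjusted p = 0.0031 and 0.0039). Their regimen parts lay between -0.62 and -0.56 and passed. Beside them, the summed level of B and T lymphocyte markers was 9.60 to 12.1 CPM in DRF against 13.1 to 21.6 CPM in NRF, with 0 of 8 markers past the test in limma, 4 at an unadjusted p under 0.05 and 1 lower without both NRF libraries that stand apart, and that of macrophage markers 1041 to 1449 against 1109 to 1739 CPM. The part of these cells in the fall of these 3 genes was not tested.

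Markers of other cells are read against the 2.85% of all genes that were higher and the 1.92% that were lower. Among 12 macrophage markers Lyve1, of resident macrophages and lymphatic vessels, was higher (0.82 ± 0.17, adjusted p = 0.018) and Cd14 lower (-0.64 ± 0.17, adjusted p = 0.047), joined by Lyz2 without replicate 4 of NRF ZT24. Among 10 mesothelial markers Krt8 and Krt18 were lower (-0.77 ± 0.15 and -0.86 ± 0.18), and without replicate 4 of NRF ZT24 7 of the 10 were lower. The summed mesothelial level was 380 to 466 CPM in DRF, 317 CPM in replicate 4 of NRF ZT24 and 476 to 776 CPM in the other 7 NRF mice, which lay above all DRF mice. None of 9 adipose progenitor markers passed with all 12 libraries (2 at an unadjusted p under 0.05), and 3 were lower without that library. Tek, a receptor gene of endothelium, was the 1 call among 8 endothelial markers (-0.38 ± 0.091, adjusted p = 0.033), of which 2 were lower without both NRF libraries that stand apart. Krt8 and Krt18 were also the calls among 10 markers of uterine and oviduct epithelium. Of these 10, 3 were lower without replicate 4 of NRF ZT24, and 3 without both NRF libraries that stand apart. Without replicate 1 of DRF ZT12 the calls of Cd14, Krt8, Krt18 and Tek were lost. Of 13 hepatocyte, 11 skeletal muscle, 5 ovary and 1 pancreas acinar markers none passed in limma, with 1, 0, 1 and 0 at an unadjusted p under 0.05. The summed hepatocyte level was 735 to 1544 CPM in DRF and 765 to 4397 CPM in NRF, and the highest sum, in replicate 1 of NRF ZT0, held 4184 CPM of Cyp2e1. That sum thus rests mostly on 1 gene and does not rank the libraries by liver RNA. Replicate 4 of NRF ZT24, the library with the most Alb, had a sum of 2854 CPM.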

How the data were processed

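Per the labels, VAT from 56 mice was sequenced as polyadenylated RNA. The submitters' processing notes name HISAT2 2.0.5, featureCounts 1.5.0-p3 and build mm10. The authors deposited a table called TPM, but its values are not linear: within each library they equal log2(CPM + 1) divided by exon length and rescaled, so they were treated as a score. This was inverted with exon lengths (GENCODE M21, GRCm38) to CPM and whole reads: 99.9996% of 1262086 tested values lay within 0.02 of a whole read. The length of Scd1 was unresolved: it stayed in the fit and in its list on an approximate scale, and no value of it is given.

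The 12 libraries were fitted with limma 3.58.1 (R 4.3.3) on log2(CPM + 1) for 15738 genes with a mean of at least 0.5 CPM over 56 libraries, with 3 group means, trend and robust spread, and Benjamini-Hochberg adjustment over all genes tested. Each library held 33.7 to 40.7 M reads, Scd1 not counted. CPM is relative to an effective size of 34.5 to 43.5 M, read from the steps of the deposited values, so 1 read is about 0.026 CPM. Scripts were tested on simulated data. Genes named were the 15 largest rises and falls past an adjusted p of 0.05 with a mean of at least 1 CPM and no overlap, and genes of 25 pathway and 12 marker lists, of which 3 genes are not reported here. The members and lists were chosen with earlier results of these data known. Figures used matplotlib 3.10.9.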

Additional observations from a re-analysis of the deposited data

Results flagged for a closer look

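Among 294 groups of 4 libraries tested, 16 held a library whose gap to its nearest neighbour, divided by the group's range, was above Dixon's critical value at the 95% level. Chance alone gives about 1 in 20 such groups. In NRF ZT24, replicate 4 was far above the others for Alb (1385 CPM) and for the summed skeletal muscle markers (509.8 CPM), and below them for Fkbp5 (16.6 CPM) and Dhrs9 (3.95 CPM). Replicate 2 of NRF ZT24 was above the others for Usp2 (20.1 CPM) and Pnpla2 (2089.9 CPM). Replicate 1 of NRF ZT24 was above for Timp3 (159 CPM) and Calr (576 CPM). In NRF ZT0, replicate 1 was above for Klf13 (65.8 CPM) and below for H2-Ab1 (154.9 CPM) and the summed pancreas acinar markers (10.1 CPM). Replicate 3 of NRF ZT0 was below for Mcm3 (9.21 CPM) and Pcca (128 CPM) and above for Npm1 (174 CPM). In DRF ZT12, replicate 4 was above for Cfd (6997 CPM) and replicate 3 below for Pcna (45.4 CPM).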

How the results depend on the processing

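The comparison rests on 4 mice against 8, and 1 read is about 0.026 CPM, which limits the precision of genes at low levels. Against 751 genes past the threshold (449 higher, 302 lower), the count was 464 on log2(deposited value + 1) (152 lower), 491 with a mean of at least 5 CPM (281 higher), 166 at an adjusted p under 0.01 (105 higher, 61 lower) and 99 with a difference of at least 1 (76 higher, 23 lower). With no filter on low genes 199 were lower. The replicate block gave 542 genes, 199 of them lower. Same-numbered mice did not all deviate together (12 pairs of mice, correlations from -0.35 to 0.45, 4 over 0.1), so the numbers were not taken as pairs.

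Leaving out 1 mouse at a time gave 205 to 1057 genes (126 to 564 higher, 79 to 493 lower). Without replicate 4 of NRF ZT24, 3 genes differed between NRF ZT24 and ZT0, all lower, and 584 genes differed from NRF ZT24 alone, 292 of them lower. The regimen part passed for 1657 genes without replicate 4 of NRF ZT24 (752 lower) and for 2230 without replicate 4 of DRF ZT0 (1013 lower).

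On the deposited scale the list medians were -0.20 for core clock activators, 0.34 for clock repressors, 0.26 for clock outputs, 0.070 for glucocorticoid genes, -0.052 for cold-inducible genes, -0.032 for endoplasmic reticulum chaperones and 0.64 for proliferation genes, of which 7 were higher. With a mean of at least 5 CPM, 13 proliferation genes were higher. With no filter the activator median was -0.10. With voom the proliferation median was 1.56 and the repressor median 1.23, which was 1.22 with a pseudocount of 0.25. Leaving out 1 mouse at a time, the medians ranged from -0.77 to -0.65 for activators, 0.87 to 1.198 for repressors, -0.10 to 0.018 for lipolysis genes, -0.39 to -0.11 for cold-inducible genes and -0.30 to -0.15 for chaperones, and 4 to 22 proliferation genes and 4 to 7 glucocorticoid genes were higher. The cause of these shifts was not tested.

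Of 86 genes given by value, none changed direction past the threshold. Calls were gained for 3 with the replicate block and for 0 to 5 under the other alternatives. Calls were lost for 17 on the deposited scale, 9 with no filter, 9 with the replicate block, 1 to 8 with other groups of libraries in the fit, voom, no trend or a mean of at least 5 CPM, 2 without both NRF libraries that stand apart (an alternative chosen after seeing the data) and 1 to 22 when 1 mouse was left out, and for 0 with a pseudocount of 0.25 or other scaling between libraries.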
